A study of Mus musculus with 6 samples.

Results

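The NR4A nuclear receptors Nr4a1, Nr4a2 and Nr4a3 were followed in cells sorted from mouse gliomas. Members were the probe sets of the array that carried exactly 1 gene symbol, with that symbol being Nr4a1, Nr4a2 or Nr4a3. Each gene had 1 such probe set, so 3 of the 22180 genes measured were members, and 0 probe sets that carried several symbols named them. The 3 genes were selected on their measured log2 intensities in Tie2-Cre against no Cre. Their differences between the groups are therefore given as a description, without a test, and support nothing further.

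NR4A receptors are transcription factors of the nuclear receptor superfamily that act without a known hormone. Nr4a1 encodes Nur77, Nr4a2 encodes Nurr1 and Nr4a3 encodes NOR-1. They are immediate early genes: cAMP, calcium, growth factors and inflammatory cytokines switch their transcription on within a short time, and the amount of receptor sets their activity. Each binds the NBRE motif as a monomer, and Nur77 and Nurr1 can also pair with the retinoid X receptors. In endothelial cells they are known as genes induced by VEGF and by thrombin, and they take part in angiogenesis, permeability and inflammation.

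The labels call the cells tumor-associated endothelial cells. They were collected from gliomas with magnetic beads that bind CD105, the endoglin protein encoded by Eng, and held in glioma-conditioned medium for 12 h. Cells of mice 1, 3 and 4 had the genotype Tie2-Cre,Pfn1fl/fl:Y129F (the Tie2-Cre group, n = 3), and cells of mice 6, 7 and 10 had Pfn1fl/fl:Y129F (the no Cre group, n = 3). Both groups thus shared floxed alleles of Pfn1, which encodes the actin-binding protein profilin-1, and its Y129F form, and both were exposed to the conditioned medium. In the Tie2-Cre group the Tie2 (Tek) promoter drives Cre, and this promoter is known to act in endothelial and in some blood-forming cells. How Cre rearranges the Pfn1 alleles, the age of the mice and the glioma line are not given in the sources used here. Phosphorylation of profilin-1 in tumour endothelium is the subject of the series.

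The groups also differed in the sex-linked genes. Xist, which is transcribed from the inactive X, had log2 intensities of 5.36 to 6.06 with Tie2-Cre and 11.16 to 11.44 without Cre, and the Y-linked genes Uty, Eif2s3y and Kdm5d were higher with Tie2-Cre by 3.70 to 4.47 log2. The Tie2-Cre arrays thus read as male and the no Cre arrays as female, so genotype and sex cannot be told apart in any comparison below. The Pfn1 probe set read 12.41 ± 0.0045 log2 (SD, n = 3) with Tie2-Cre and 12.37 ± 0.026 (SD, n = 3) without Cre, a difference of 0.04 (SE 0.062, limma adjusted p 0.776, not past 0.05). The array median over genes lay between 7.08 and 7.14 log2 in the 6 arrays.

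The promoters of the 3 genes are shown first, because CREB, the transcription factor activated by cAMP, binds the CRE and is a classical route to NR4A induction. RefSeq promoter windows (build GRCm38.p6) were found for 3 of the 3 genes. Each window runs from 250 bases before to 50 bases after a transcript start. The sequences are written 5′ to 3′ on the strand of the gene, and capitals mark the CRE core TGACG or its reverse complement CGTCA. Nr4a1 lies on chromosome 15 (101253902 to 101274795), and the 250 bases at chr15:101266596-101266845 on the plus strand, which lie inside that span, precede the start of the transcript used. Nr4a2 lies on chromosome 2 (57106830 to 57124003), and the 250 bases at chr2:57124004-57124253 on the minus strand lie directly before it.
Nr4a1: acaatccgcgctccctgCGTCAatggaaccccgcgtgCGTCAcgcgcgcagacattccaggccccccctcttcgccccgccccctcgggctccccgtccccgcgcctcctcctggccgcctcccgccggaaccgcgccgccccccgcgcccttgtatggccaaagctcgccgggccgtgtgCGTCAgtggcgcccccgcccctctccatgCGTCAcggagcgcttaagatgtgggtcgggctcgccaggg
Nr4a2: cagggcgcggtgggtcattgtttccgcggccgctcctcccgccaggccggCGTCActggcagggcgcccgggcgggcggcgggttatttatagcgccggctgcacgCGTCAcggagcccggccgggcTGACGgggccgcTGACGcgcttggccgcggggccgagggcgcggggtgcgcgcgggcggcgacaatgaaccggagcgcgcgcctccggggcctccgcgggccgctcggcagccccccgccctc

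Nr4a3 lies on chromosome 4 (48045078 to 48086447), and most of its window falls inside the span of a longer transcript. Only the stretches that hold the CRE core are therefore shown, at chr4:48045069-48045098, chr4:48045099-48045109 and chr4:48045153-48045167 on the plus strand.
Nr4a3 stretch a: gagggTGACGtagcgtcccatgtCGTCAca
Nr4a3 stretch b: tTGACGtctcg
Nr4a3 stretch c: ataaaTGACGtgccg

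Each of the 3 windows held 4 copies of the CRE core, counted on both strands. Of 16990 genes of the array with a promoter window of the same length, 24.5% held at least 1 copy, and 61 (0.359%, the 3 NR4A genes included) held 4 or more. The full palindrome TGACGTCA was found in 0 of the 3 windows and in 2.45% of all windows, and the NBRE motif AAAGGTCA in 0 of the 3 and in 1.29% of all. The EGR motif GCGNGGGCG occurred once each in Nr4a1 and Nr4a2 (7.65% of all windows), and the TATA box TATAAA in Nr4a2 alone among the 3 (12.9% of all windows). The AP-1 motif TGANTCA, the CArG box and a strict form of the MEF2 motif had 0 matches in the 3 windows. They were found in 7.39%, 1.46% and 0.565% of all windows. Looser forms of the MEF2 motif were not searched. The printed Nr4a2 sequence holds a stretch of such a looser form, which overlaps its TATA box match. The count of 0 therefore does not show that MEF2 sites are lacking. The motifs counted were searched on both strands. The core is contained in the full palindrome, and a match is a description of letters, not of a bound site.

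Nr4a1, whose product Nur77 is the family member best described in blood vessels, lay higher with Tie2-Cre. Its log2 intensity was 9.86, 9.82 and 9.32 in Tie2-Cre mice 1, 3 and 4, and 8.29, 8.09 and 8.48 in no Cre mice 6, 7 and 10. The groups did not overlap, and 0.84 log2 separated the lowest Tie2-Cre array, mouse 4, from the highest no Cre array, mouse 10. On the linear scale the intensities were 929, 903 and 639 with Tie2-Cre and 314, 273 and 357 without Cre. The group means were 9.67 ± 0.30 (SD, n = 3) and 8.29 ± 0.19 (SD, n = 3), a difference of 1.38 log2 (SE 0.16), or 2.60-fold. In these bulk samples, a larger share of cells that express a gene and more RNA per cell cannot be told apart.

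Nr4a3, which encodes NOR-1, had the largest difference of the 3. Its log2 intensity was 8.65, 8.55 and 7.84 in Tie2-Cre mice 1, 3 and 4, and 6.79, 6.59 and 6.37 in no Cre mice 6, 7 and 10. The groups were 1.05 log2 apart at their nearest arrays, again mouse 4 on the Tie2-Cre side, with mouse 6 on the other. The intensities were 403, 375 and 229 with Tie2-Cre and 111, 96.4 and 82.8 without Cre. The group means of 8.35 ± 0.44 (SD, n = 3) and 6.58 ± 0.21 (SD, n = 3) differed by 1.76 log2 (SE 0.21), or 3.40-fold.

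Nr4a2, which encodes Nurr1, had the smallest difference. Its log2 intensity was 9.50, 9.73 and 9.25 in Tie2-Cre mice 1, 3 and 4, and 8.52, 8.81 and 8.74 in no Cre mice 6, 7 and 10. The nearest arrays of the groups, mouse 4 and mouse 7, were 0.44 log2 apart, so the groups did not overlap here either. The intensities were 724, 847 and 609 with Tie2-Cre and 367, 448 and 426 without Cre. The group means were 9.49 ± 0.24 (SD, n = 3) and 8.69 ± 0.15 (SD, n = 3), a difference of 0.80 log2 (SE 0.13), or 1.75-fold.

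**Figure D1:**
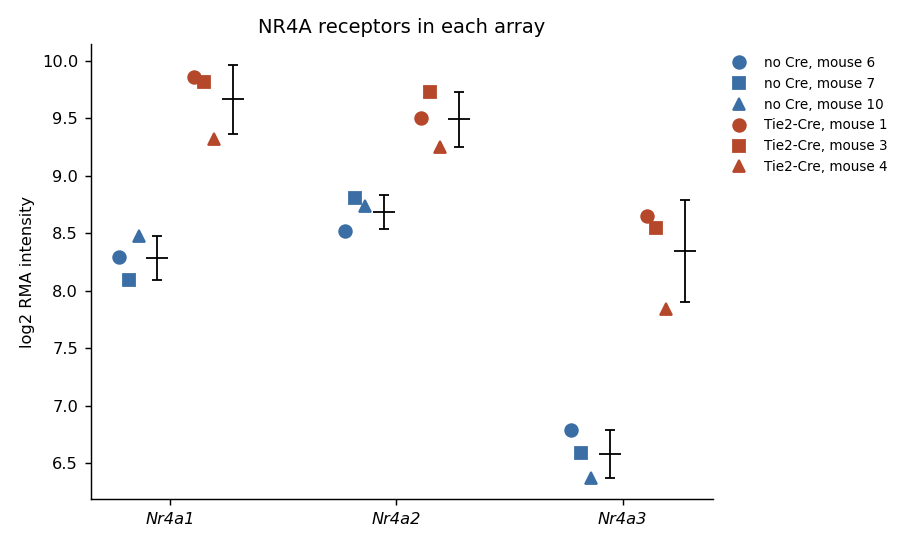
The log2 RMA intensity of Nr4a1, Nr4a2 and Nr4a3 is plotted for each array, blue without Cre and red with Tie2-Cre, with 1 symbol per mouse and the group mean ± SD (n = 3) in black beside the points. In each gene all 3 red points lie above all 3 blue points, and mouse 4 is the lowest red point; shapes shared by colours do not pair mice.

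The arrays of the groups did not overlap in 3 of the 3 genes, each with Tie2-Cre above. Among the 22180 genes measured, 31.0% had arrays that kept apart in this way, 13.6% with Tie2-Cre above. By limma, 12.0% of genes passed the threshold used below, an adjusted p under 0.05, with 4.78% higher and 7.17% lower. Since this comparison served to pick the genes, nothing is read from these counts. Sorted by the difference, Nr4a3 held rank 27, Nr4a1 rank 58 and Nr4a2 rank 230 from the top of the 22180 genes. In either direction, 0.266% of genes had a larger absolute difference than Nr4a3, 0.600% a larger one than Nr4a1 and 2.33% a larger one than Nr4a2. Leaving out each mouse in turn moved the difference of Nr4a1 between 1.28 and 1.55, that of Nr4a2 between 0.69 and 0.93 and that of Nr4a3 between 1.61 and 2.02 log2. The highest value of each came without Tie2-Cre mouse 4.

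The 3 receptors varied more between Tie2-Cre mice than most genes did. The SD of Nr4a3 among the Tie2-Cre arrays exceeded that of 99.2% of genes, that of Nr4a1 exceeded 96.3% and that of Nr4a2 exceeded 91.4%. Without Cre the shares were 89.8%, 87.6% and 77.6%. Among the Tie2-Cre arrays mouse 4 was the lowest in each gene, with deviations from its group mean of -0.35 log2 for Nr4a1, -0.24 for Nr4a2 and -0.51 for Nr4a3. Among the no Cre arrays the 3 genes did not share an order: mouse 10 was highest for Nr4a1, mouse 7 for Nr4a2 and mouse 6 for Nr4a3.

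The other nuclear receptors moved in both directions. Of 46 listed, 42 were measured: 6 were higher with Tie2-Cre, 5 were lower and 31 did not pass the threshold, so that 26.2% passed against 12.0% of all genes. Their median difference was 0.03 log2, against -0.0042 over all genes, and it ran from 0.0048 without no Cre mouse 6 to 0.064 without no Cre mouse 7. The higher ones included the adipogenic receptor Pparg (0.76, SE 0.098, adjusted p 0.00214), which ranged from 8.47 to 8.75 with Tie2-Cre and from 7.76 to 8.00 without Cre. The venous fate regulator Nr2f2, also called COUP-TFII (0.58, SE 0.078), and the thyroid hormone receptor Thra (0.50, SE 0.075) were higher too. The vitamin D receptor Vdr (0.53, SE 0.10, adjusted p 0.0154) did not pass with Tie2-Cre mouse 1, no Cre mouse 7 or no Cre mouse 10 omitted (adjusted p up to 0.0609). The lower ones included the progesterone receptor Pgr (-1.28, SE 0.11, adjusted p 0.000383), the retinoic acid receptor Rarb (-1.12, SE 0.081), the oestrogen receptor Esr1 (-0.74, SE 0.10) and the clock-linked receptor Rora (-0.61, SE 0.067). No other measured receptor had a positive difference larger than that of Nr4a2, the smallest of the 3, while those of Pgr and Rarb were larger in size. Because the NR4A genes were picked on this difference, nothing is read from this order. The calls of Nr2c2 (0.26) and of the haem receptor Nr1d1 (-0.28) were lost when any 1 mouse was left out, and omitting Tie2-Cre mouse 1, no Cre mouse 7 or no Cre mouse 10 left 3 higher receptors (4 for each other mouse).

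**Figure D2:**
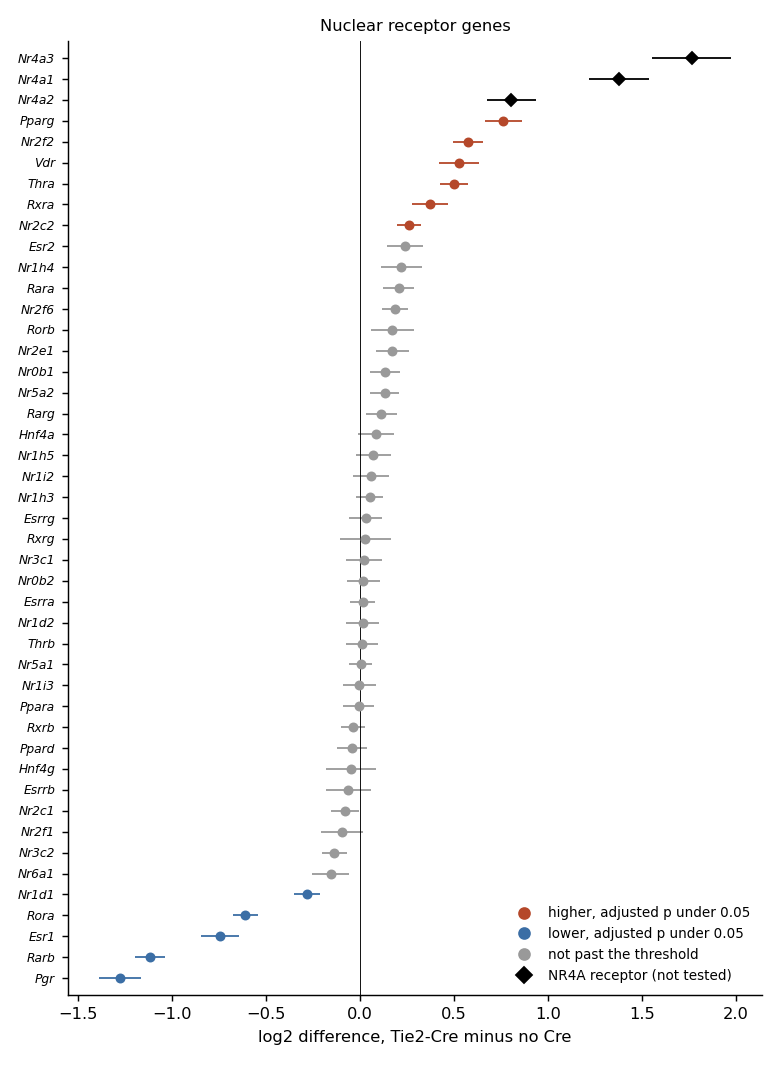
Each point is the log2 difference of 1 nuclear receptor gene, Tie2-Cre minus no Cre, with its SE as a bar, sorted by size. The NR4A genes (black) stand at 0.80 to 1.76, above Pparg at 0.76, and the lowest point is Pgr at -1.28.

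Of the genes whose proteins work with NR4A receptors, 15.4% passed the threshold, against 12.0% of all genes in either direction. The calls were all higher, and 4.78% of all genes were higher. With 2 calls, nothing is read from this share. The list of partners and coregulators held 13 measured of 16, of which 2 were higher, 0 lower and 11 not past the threshold by limma (0 lower at an unadjusted p under 0.05 and 0 by the fit with trend and robust). Their median difference was 0.11 log2. Rxra, the retinoid X receptor that can pair with Nur77 and Nurr1, lay at 9.39 ± 0.18 (SD, n = 3) with Tie2-Cre and at 9.02 ± 0.039 without Cre. Its difference of 0.37 (SE 0.096, adjusted p 0.0429) lost its call when any 1 mouse was left out, with adjusted p up to 0.125 over its alternatives. Bcl2, the apoptosis inhibitor that Nur77 can bind at mitochondria, was higher by 0.58 (SE 0.11, adjusted p 0.0143). With Tie2-Cre mouse 1 or 3 omitted it did not pass (adjusted p up to 0.0542). With the mean of its probe sets the difference of Bcl2 was 0.31. The count of higher members was 0 without Tie2-Cre mouse 1 or 3 and 1 without Tie2-Cre mouse 4 or any no Cre mouse.

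Receptors of signals that induce NR4A genes differed in both directions. Of 17 measured (21 listed), 8 were higher, 2 lower and 7 not past the threshold, or 58.8% past it against 12.0% of all genes, with a median of 0.27 log2. Like the other lists, this list was chosen with earlier results of these data known, so its share is a description. Calcrl, the receptor for adrenomedullin and CGRP that raises cAMP, ranged from 9.47 to 9.71 with Tie2-Cre and from 8.14 to 8.24 without Cre, a rise of 1.38 (SE 0.083, adjusted p 6.27e-05). The sphingosine-1-phosphate receptor S1pr3 rose by 2.34 (SE 0.24), the PDGF receptor Pdgfra by 1.65 (SE 0.13), the interleukin-1 receptor Il1r1 by 1.23 (SE 0.15) and Nrp1, which assists VEGF receptors, by 0.77 (SE 0.083). Adcyap1r1, the PACAP receptor that also raises cAMP, was lower (-1.19, SE 0.18, adjusted p 0.00405), at 8.97 to 9.71 with Tie2-Cre and 10.36 to 10.51 without Cre. The lysophosphatidic acid receptor Lpar1 was lower as well (-0.57, SE 0.12), but did not pass with no Cre mouse 7 or 10 omitted (highest adjusted p 0.0673). Kdr, the main VEGF receptor of endothelium, was at 6.26 ± 0.13 (SD, n = 3) and 6.19 ± 0.069, a difference of 0.07 (SE 0.084) that did not pass. Flt1, the other VEGF receptor of the list, named after its values were seen, was higher by 1.11 (SE 0.25, adjusted p 0.0272), at 8.24 to 9.35 with Tie2-Cre and 7.47 to 7.69 without Cre. It did not pass with any no Cre mouse omitted (highest adjusted p 0.0909). The count of higher receptors was 5 without no Cre mouse 6 or 10, and that of lower ones 1 without no Cre mouse 7 or 10.

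Inside the cell, the cAMP, calcium and kinase list held 8 higher, 0 lower and 23 other members among 31 measured (36 listed). The share past the threshold was 25.8%, all higher, against 12.0% of all genes in either direction and 4.78% higher. The count of 0 lower became 1 at an unadjusted p under 0.05, and 1 by the fit with trend and robust. The median difference was 0.11 log2. The MEF2 transcription factor Mef2c, a calcium-responsive activator of Nr4a1, was higher by 1.61 (SE 0.10, adjusted p 9.06e-05), and by 1.01 with the mean of its probe sets. Class IIa histone deacetylases, which hold MEF2 in check and repress Nr4a1 in this way, were also higher: Hdac9 by 1.79 (SE 0.14, adjusted p 0.000253) and Hdac5 by 0.58 (SE 0.076). Prkd1, a kinase that sends these deacetylases out of the nucleus, rose by 0.98 (SE 0.099), and Prkar2b, a regulatory subunit of the cAMP-dependent kinase, by 0.80 (SE 0.080). Creb1 was at 9.62 ± 0.059 (SD, n = 3) and 9.33 ± 0.030, higher by 0.29 (SE 0.066, adjusted p 0.0275). Omitting any mouse but Tie2-Cre mouse 4 ended this call (adjusted p up to 0.0933). Mef2d (0.25, adjusted p 0.0632) and Hdac7 (0.26, adjusted p 0.0705) did not pass. Both passed with trend and robust (0.0121 and 0.0177), within 0.0121 to 0.190 for Mef2d and 0.0177 to 0.203 for Hdac7 over all alternatives.

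**Figure D3:**
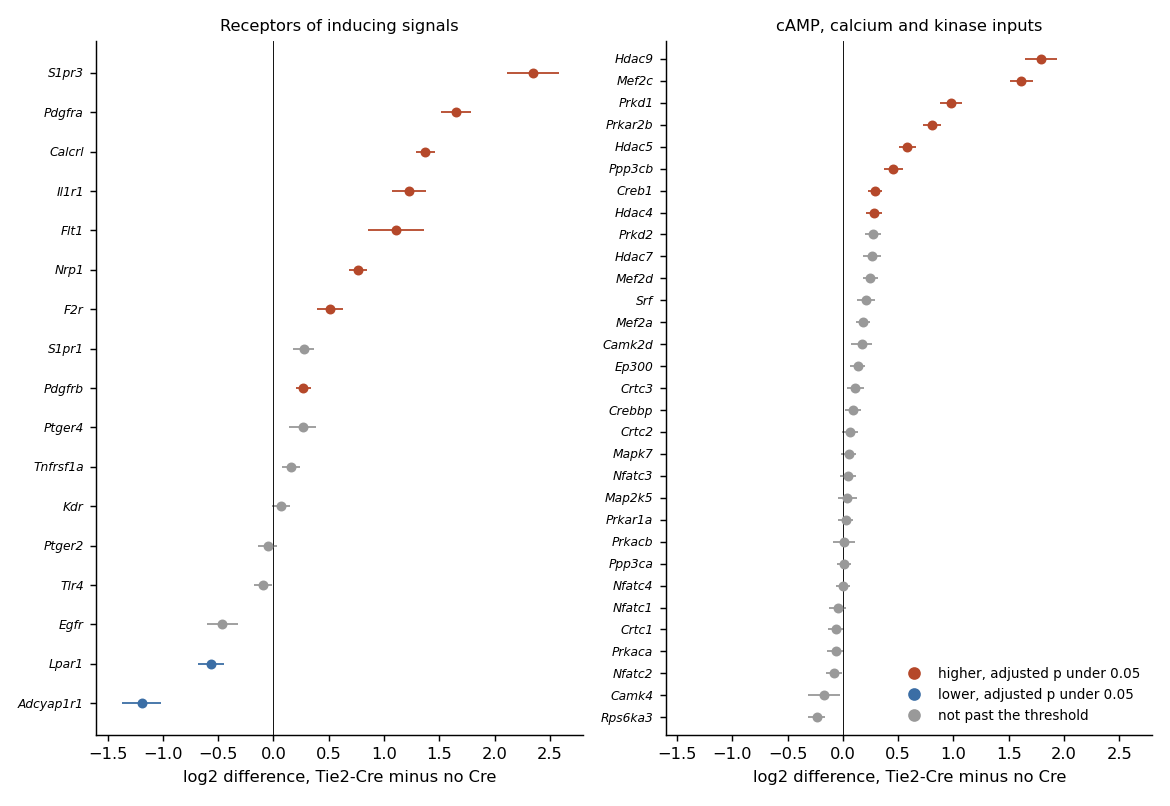
Points give the log2 difference of each gene, Tie2-Cre minus no Cre, with its SE as a bar, for receptors of inducing signals (left) and for cAMP, calcium and kinase inputs (right). Receptors run from Adcyap1r1 at -1.19 to S1pr3 at 2.34, and in the right panel Hdac9 (1.79) and Mef2c (1.61) stand at the top.

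Other immediate early genes, which many of the same stimuli induce, moved in both directions. Of 31 measured (34 symbols listed), 4 were higher, 3 lower and 24 did not pass, so that 22.6% passed against 12.0% of all genes. The listed symbols Cyr61 and Ctgf are older names of Ccn1 and Ccn2, which were measured. The median difference was 0.02 log2. Fos lay at 7.01 to 7.24 with Tie2-Cre and 7.29 to 7.47 without Cre, a difference of -0.28 (SE 0.086, adjusted p 0.0806). Egr1 had a difference of -0.30 (SE 0.098, adjusted p 0.0953) and Junb one of 0.02 (SE 0.12, adjusted p 0.931), so that none of these classical early genes passed. The higher ones were Npas4, an activity-dependent transcription factor (0.79, SE 0.093, adjusted p 0.00151), the mRNA decay factor Zfp36 (0.58, SE 0.073), the Krüppel-like factor Klf6 (0.61, SE 0.080) and the matricellular gene Ccn1 (0.29, SE 0.065). Lower were Ier3, a survival gene (-0.94, SE 0.11, adjusted p 0.00148), Myc (-0.53, SE 0.076) and the small Maf factor Maff (-0.45, SE 0.11). Omitting any mouse but Tie2-Cre mouse 3 ended the call of Ccn1, and any but Tie2-Cre mouse 4 that of Maff (adjusted p up to 0.0910 and 0.109). No list member had a positive difference above that of Nr4a2, while that of Ier3 was larger in size. The NR4A genes were picked on this difference, so nothing is read from this order.

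Among cAMP-CREB target genes, 3 of 16 measured (17 listed) were higher, 0 lower and 13 not past the threshold. The share past it was 18.8%, all higher, against 12.0% of all genes in either direction and 4.78% higher. At an unadjusted p under 0.05 there were 6 higher and 1 lower, and with trend and robust 5 and 0. The median difference was 0.13 log2. Rgs2, a brake on G protein signalling, rose by 0.77 (SE 0.14, adjusted p 0.0104), at 8.28, 8.66 and 8.09 in Tie2-Cre mice 1, 3 and 4 and 7.47, 7.66 and 7.60 in no Cre mice 6, 7 and 10, and by 0.44 with the mean of its probe sets. The transcription factor Nfil3 rose by 0.64 (SE 0.12, adjusted p 0.0104). The kinase Sik1, which restrains CREB coactivators, rose by 0.45 (SE 0.094, adjusted p 0.0196). Omitting any mouse but Tie2-Cre mouse 4 and no Cre mouse 6 ended this call (adjusted p up to 0.0718). Crem, the classical feedback target of CREB, had a difference of 0.04 (SE 0.076, adjusted p 0.802). This list shares Dusp1, Fos and Fosb with the immediate early genes.

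**Figure D4:**
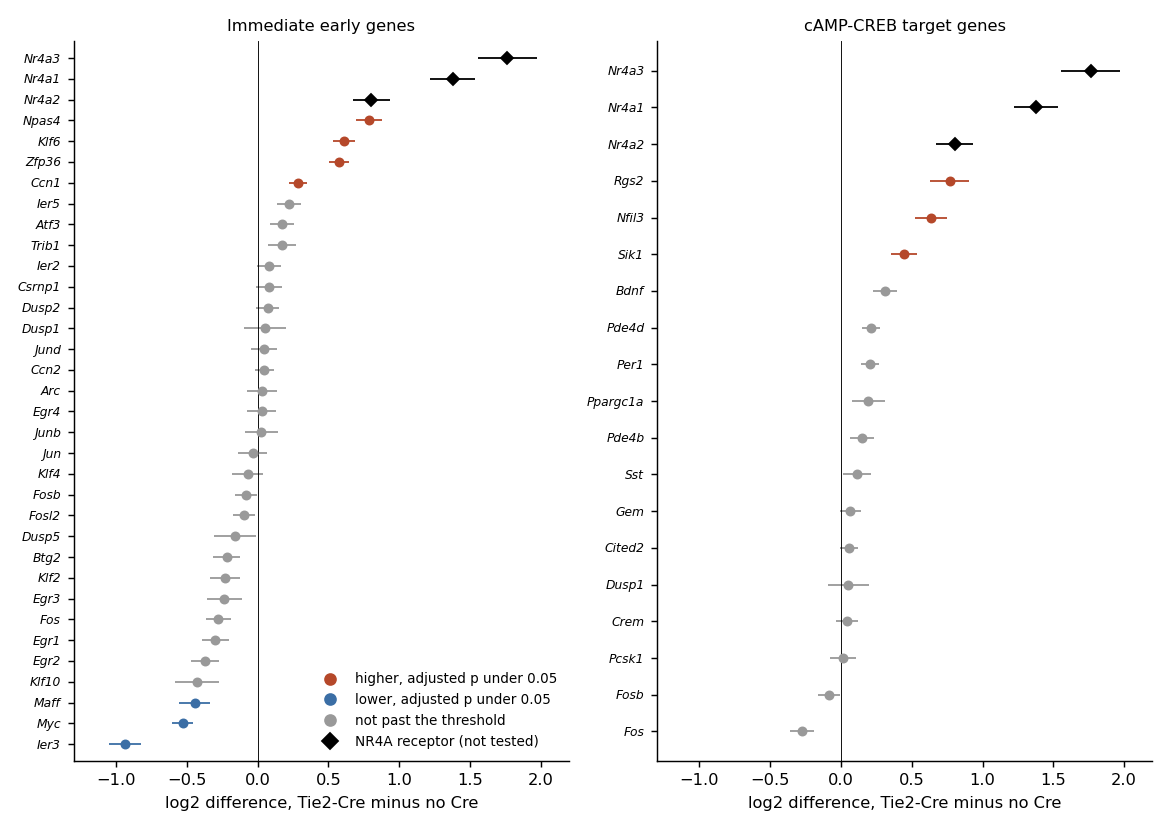
Points give the log2 difference, Tie2-Cre minus no Cre, with its SE as a bar, for immediate early genes (left) and cAMP-CREB target genes (right), with the NR4A genes (black) added to both. The NR4A genes stand at 0.80 to 1.76, Npas4 is next on the left at 0.79 and Rgs2 on the right at 0.77, while Fos stands at -0.28 in both.

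Genes described as NR4A targets in other tissues were mostly not past the threshold. Of 34 measured (37 listed), 2 were higher, 4 lower and 28 not past, a share of 17.6% against 12.0% of all genes, with a median of -0.03 log2. Akr1c18, the progesterone-breaking enzyme that Nur77 induces in the ovary, was lower by 3.48 log2 on average (difference -3.48, SE 0.13, adjusted p 6.45e-06), from 9.45 ± 0.19 (SD, n = 3) without Cre to 5.97 ± 0.21 with Tie2-Cre. The cell cycle genes Skp2 (-0.40, SE 0.067) and Birc5 (-0.72, SE 0.12) were lower, while cyclin D1 (Ccnd1, 0.54, SE 0.070, adjusted p 0.00223) and the muscle enolase Eno3 (0.60, SE 0.11) were higher. The adhesion molecule Vcam1 was lower by a difference of -0.78 (SE 0.17, adjusted p 0.0224), but did not pass with any no Cre mouse omitted (highest adjusted p 0.0714). Spp1 was not analysed here. The count of higher members was 4 without Tie2-Cre mouse 4.

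The genes whose profile over the 6 arrays lay nearest to each receptor were found by the root mean square distance between log2 profiles, each centred on its own mean. For Nr4a1 they were the chemokine Cx3cl1 (distance 0.089 log2), Fgl2 (0.14), lumican (Lum, 0.14), Net1 (0.14) and the chemokine Ccl9 (0.15). For Nr4a2 they were Rgs2 (0.057), Hcls1 (0.077), the viral RNA sensor Ifih1 (0.079), Ror1 (0.080) and Lgals3bp (0.084). For Nr4a3 they were the xylosyltransferase Xylt1 (0.074), Dock10 (0.10), Hdac9 (0.11), Susd2 (0.11) and Pdgfra (0.15), with 1 uncharacterised symbol passed over. Between the receptors the distance was 0.29 for Nr4a1 and Nr4a3, 0.34 for Nr4a1 and Nr4a2 and 0.54 for Nr4a2 and Nr4a3. Of the 22180 genes, 83 lay closer to Nr4a1 than Nr4a3 did and 141 closer than Nr4a2 did, while 18731 lay closer to Nr4a2 than Nr4a3 did. The profiles were not scaled, so the distance also reflects the size of the group difference, 0.80 log2 for Nr4a2 and 1.76 for Nr4a3. Genes with little difference can thus lie closer to Nr4a2 than Nr4a3 does. No count was taken from the side of Nr4a3. The neighbours were chosen for their likeness, and their values are a description.

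**Figure D5:**
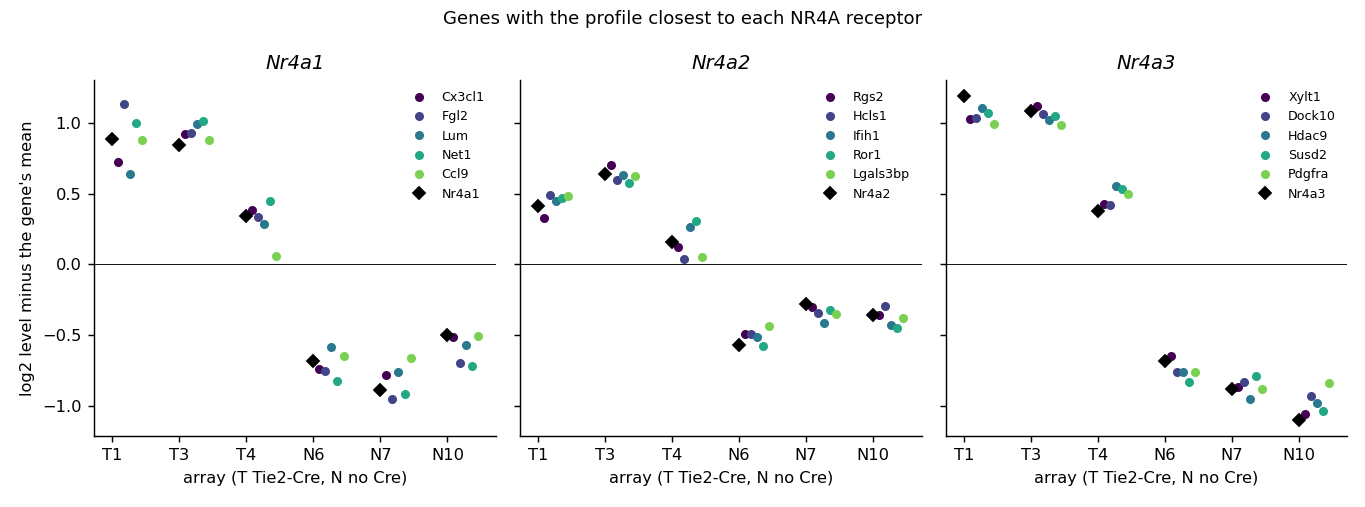
For each receptor (black) and its 5 nearest genes (colours), the log2 level in each of the 6 arrays is plotted after subtracting the gene's own mean, with T for Tie2-Cre, N for no Cre and the mouse number. In all 3 panels every gene lies above 0 in the Tie2-Cre arrays and below 0 in the no Cre arrays, and T4 is the lowest Tie2-Cre array.

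Lists of cell type markers were compared between the same groups, and the share of each list past the threshold is read against the 12.0% of all genes. Of 14 endothelial markers (7.14% past), 0 were higher and 1, the sorting antigen Eng, was lower by limma (0 and 2 at an unadjusted p under 0.05, 0 and 1 with trend and robust). Pecam1 lay at 6.24 ± 0.18 and 6.23 ± 0.14 log2 (SD, n = 3), Cdh5 at 6.76 ± 0.14 and 7.02 ± 0.051 and Tek at 5.68 ± 0.20 and 5.91 ± 0.20, each with Tie2-Cre first, and these 3 did not pass. The values carry no detection calls and RMA gives no zeros, so no marker can be called absent. The mean log2 level of the endothelial list was 6.67 to 6.79 with Tie2-Cre and 6.74 to 6.79 without Cre. In the same order it was 10.52 to 10.62 and 9.75 to 9.77 for the fibroblast list described below. It was 9.83 to 10.10 and 9.35 to 9.41 for the pericyte list, and 6.12 to 6.23 and 6.11 to 6.12 for T and NK cells. These levels alone do not settle whether the label holds, which was not tested. The difference of Eng was -0.30 (SE 0.064, adjusted p 0.0217). Omitting any mouse but Tie2-Cre mouse 3 ended this call (adjusted p up to 0.0827). The median difference of the list was 0.012 log2, with 8 of 14 members above 0. The summed intensity of the list was 4659 to 4731 with Tie2-Cre and 5436 to 5620 without Cre, of which Eng alone gave 3385 to 3546 and 4177 to 4373. Without Eng the sums overlapped, at 1185 to 1344 and 1229 to 1283.

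Of 12 pericyte and smooth muscle markers (50.0% past) 6 were higher and 0 lower (0 lower at an unadjusted p under 0.05 and with trend and robust), and their summed intensity was 31213 to 37103 with Tie2-Cre against 22109 to 23509. Rgs5, a pericyte marker, was higher by 1.45 (SE 0.063). Of 11 fibroblast markers (54.5% past) 5 were higher and 1 lower, with sums of 35051 to 36476 against 32292 to 32879. The largest differences of this list were those of Dpt (3.54, SE 0.10, adjusted p 1.89e-06) and Postn (2.36, SE 0.14), named after their values were seen. Pdgfra and Lum, named above, are also among the higher ones. Decorin (Dcn) was the lower one (-0.76, SE 0.10, adjusted p 0.00244), and the collagen gene Col1a1 (-0.07, SE 0.065) did not pass. Tie2-Cre mouse 4, the lowest of its group in the 3 NR4A genes, had the highest mean log2 level of the pericyte list, 10.10 against 9.88 and 9.83 in mice 1 and 3. For the fibroblast list the same mouse had the lowest mean of its group, 10.52 against 10.54 and 10.62 in mice 1 and 3. Mesothelial and epithelial markers were lower in 3 of 10 (30% past) and higher in 0 (limma; 3 and 0 at an unadjusted p under 0.05 and with trend and robust), with sums of 1468 to 1657 against 3480 to 3866. The largest differences were those of Upk1b (-3.29, SE 0.16) and Upk3b (-1.36, SE 0.12), named after their values were seen. Msln (-0.09, SE 0.087) did not pass.

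Microglia and macrophage markers were higher in 1 and lower in 2 of 14 (21.4% past), with sums of 1728 to 1861 against 1775 to 1927. The lower ones were Cd68 (-0.99, SE 0.082) and Csf1r (-0.42, SE 0.068), and the higher one was Tmem119 (0.65, SE 0.11). Cd68 and Tmem119 were named after their values were seen. T and NK cell markers were higher in 0 and lower in 0 of 9 by limma (1 and 0 at an unadjusted p under 0.05, 0 and 0 with trend and robust), with sums of 701 to 771 against 695 to 714. Astrocyte and glioma markers were higher in 1 and lower in 0 of 10, or 10.0% past (1 and 1 at an unadjusted p under 0.05, 1 and 0 with trend and robust), with sums of 1047 to 1083 against 943 to 991. The higher one was Nes (0.59, SE 0.080), named after its values were seen, and Gfap (-0.09, SE 0.12) did not pass. The part of these cell type differences in the NR4A levels was not tested.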

How the data were processed

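RNA of each of 6 mice was hybridised to its own Affymetrix mouse gene array. The deposited values are RMA intensities, per the submitters' processing notes; the authors computed them in Expression Console. Their scale is linear (5.13 to 17822). RMA corrects background and normalizes across arrays, which can compress the folds of dim genes. The log2 of the deposited values was taken, with no further scaling. The number of arrays limits the precision.

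Of 41345 probe sets, 23521 had exactly 1 symbol in the array annotation, 1814 several and 16010 were not listed; identifiers of 23328 were found in the RefSeq gene table and 0 symbols were updated. The brightest probe set per symbol was kept, which left 22180 genes. Tie2-Cre was compared with no Cre by limma 3.58.1 in R 4.3.3 (lmFit, eBayes, two-sided), with the data.table package (version 1.17.8) for reading, and a Benjamini-Hochberg adjusted p under 0.05 over all genes. SE values are those of this fit. The fit was also run on simulated data with independent noise, which does not show whether the SE values hold in these arrays. The members and lists were chosen with earlier results of these data known. Named were the 3 receptors, up to 5 members per list and direction with the smallest p among those past the threshold, and a fixed set of markers and classical genes. The 5 nearest profiles per receptor were also named. Alternatives were another quantile normalization, centred arrays, a minimum mean log2 of 5, the mean of the probe sets, eBayes with trend and robust, array weights and leaving out each mouse. A further one added the probe sets without exactly 1 symbol to the genes tested.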

Additional observations from a re-analysis of the deposited data

How the results depend on the processing

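The differences of Nr4a1, Nr4a2 and Nr4a3 kept their direction in all 13 alternatives. This was largely fixed in advance: the groups do not overlap in these genes, so leaving out 1 mouse cannot reverse a sign. Each gene has 1 probe set, so averaging probe sets changes nothing. The kept direction therefore adds no support. No paired analysis was possible because the mouse numbers differ between the groups. Leaving out each mouse gave 634 to 903 higher genes (1061 with all mice) and 910 to 1253 lower ones (1591). In the same way, the counts of higher members were 3 to 4 for other nuclear receptors, 5 to 8 for receptors of inducing signals, 0 to 1 for partners and 2 to 4 for described targets, and the counts of lower members 1 to 2 for receptors of inducing signals and 0 to 1 for the inputs. List medians ran from 0.0048 to 0.064 for other nuclear receptors, 0.18 to 0.33 for receptors of inducing signals, 0.081 to 0.13 for inputs, 0.12 to 0.16 for cAMP-CREB targets, -0.049 to 0.026 for immediate early genes and -0.054 to -0.0069 for described targets. In another alternative the probe sets without exactly 1 symbol were added to the genes tested, which enlarges the adjustment. There 3 other nuclear receptors, 5 receptors of inducing signals and 1 partner were higher, and 1 receptor of inducing signals was lower. With trend and robust, 5 cAMP-CREB targets were higher and 1 input was lower, and with the mean of the probe sets the immediate early median was -0.035; the cause was not tested. Differences near 0 changed sign: leaving out each mouse gave -0.086 to 0.087 for Pecam1, -0.063 to 0.14 for Junb, -0.014 to 0.094 for Crem, -0.13 to 0.15 for Dusp1, -0.0040 to 0.11 for Kdr and -0.21 to 8.43e-05 for Gfap, and another quantile normalization gave -0.00080 for Pecam1. Adding the probe sets without exactly 1 symbol also ended the calls of Rxra, Nr1d1, Nr2c2, Vdr, Lpar1, Creb1, Sik1, Ccn1, Maff, Vcam1, Eng, Pdgfrb, Flt1 and Chpf.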

Other observations

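The array genes were also described by the CRE core count of their promoter window. This count was looked at after the values of the NR4A genes had been seen. Of 12835 genes with 0 copies in the window, 4.77% were higher and 6.77% lower with Tie2-Cre. The shares were 5.13% and 8.70% among 3022 genes with 1 copy, 5.39% and 9.43% among 891 with 2 copies, and 4.97% and 13.3% among 181 with 3 copies. Of the 58 genes other than the NR4A receptors with 4 or more copies, 2 were higher (3.45%) and 6 lower (10.3%). The 2 higher ones were the phosphatase gene Dusp8 and the chondroitin synthesis gene Chpf, both named after their values were seen. The call of Chpf was lost when any mouse but Tie2-Cre mouse 4 was omitted (adjusted p 0.0259, up to 0.0896). Among the early genes, Dusp1 has 3 copies, Fos 2 and Npas4 2, with log2 differences of 0.05, -0.28 and 0.79.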
